A study of Mus musculus with 9 samples.

Results

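The genes described here are 9 genes known for their part in B lymphocytes, Cd79a, Cd79b, Ms4a1, Pax5, Blk, Cd22, Cr2, Blnk and Pou2af1. Their probes were found by the gene name printed in the scanner files, which gave 13 of the 41174 probes and 9 of the 27670 genes or transcripts on the array. The genes Ms4a1, Pax5, Cd22 and Cr2 had a pair of probes each and the other 5 genes had 1 probe. RNA came from prostate cells of BL6 mice, sorted by FACS (fluorescence-activated cell sorting) into 2 fractions that both lacked lineage markers (Lin-). The marker-positive fraction (CD44+CD133+Sca-1+CD117+, named stem cells in the labels) was measured on 3 arrays, and the marker-negative fraction (CD44-CD133-Sca-1-CD117-, named non-stem cells) on 6 arrays. Amplified sample RNA carried the red dye Cy5 and a pooled mouse reference RNA from Stratagene carried the green dye Cy3 on every array. The labels give no age or sex, do not say which antibodies made up the lineage stain, and do not state whether arrays of 1 group stand for different mice. The p-values therefore reflect array-to-array spread alone, which may be technical.

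A B cell recognises antigen through a membrane immunoglobulin that signals through the partner proteins encoded by Cd79a and Cd79b. Src-family kinases such as Blk and the adaptor encoded by Blnk carry that signal inward, while the co-receptors encoded by Cd22 and Cr2 lower or raise it. Pax5 and Pou2af1 encode transcriptional regulators of the B lineage, and antibodies against lineage markers often include one against a B cell surface protein.

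No probe of these genes differed between the fractions after adjustment for all tested probes. A probe was tested where its Cy5 signal was called well above background on 3 arrays or more, which held for 10 of 13, and none of these was called higher or lower (limma, adjusted p from 0.162 to 0.932). Among all 28334 tested probes 3.47% were called, 1.48% as higher with the marker-positive sort and 1.99% as lower. A single probe, that of Cd79a, had an unadjusted p under 0.05, beside 19.7% of all tested probes in either direction and 10.6% in its direction. Of the 10 tested probes 5 had positive and 5 negative differences, with a median log2 difference of -0.08, beside -0.03 over all tested probes. In bulk RNA, fewer cells of a type and less RNA per cell cannot be told apart.

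Upstream sequences are shown for 3 of the genes, Cd79a because its values in the fractions lay apart, Blnk because its promoter held the octamer to which the partners of the Pou2af1 protein bind, and Cd22 because its promoter held a motif of the B lineage factor EBF. The sequences are from RefSeq, build GRCm38.p6, and cover the 250 bases before the listed start. Entries were found for 6 of the 9 genes, and none was used for Cd79b, Ms4a1 and Blk. Capitals mark matches on either strand to the octamer ATGCAAAT, the EBF motif (TCCC and GGGA with 2 bases of any kind between) and the E-box CAGGTG, none of which overlapped another.
Cd79a: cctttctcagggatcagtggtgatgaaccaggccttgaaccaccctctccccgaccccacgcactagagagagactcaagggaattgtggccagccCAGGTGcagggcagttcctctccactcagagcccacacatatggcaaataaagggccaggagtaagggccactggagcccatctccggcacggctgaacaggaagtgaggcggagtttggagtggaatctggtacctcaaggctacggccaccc
Cd22: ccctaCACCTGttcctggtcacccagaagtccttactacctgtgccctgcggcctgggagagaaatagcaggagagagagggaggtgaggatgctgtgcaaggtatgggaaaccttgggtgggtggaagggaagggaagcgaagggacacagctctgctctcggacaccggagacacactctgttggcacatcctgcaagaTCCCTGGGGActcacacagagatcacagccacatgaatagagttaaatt
Blnk: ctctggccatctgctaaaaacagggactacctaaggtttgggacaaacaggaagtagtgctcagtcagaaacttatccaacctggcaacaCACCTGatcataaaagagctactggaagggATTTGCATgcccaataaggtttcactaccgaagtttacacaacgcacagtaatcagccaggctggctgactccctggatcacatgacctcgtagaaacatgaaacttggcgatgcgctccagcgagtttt
Cd79a lies on the plus strand at chr7:24897247-24897496, Cd22 on the minus strand at chr7:30879029-30879278 and Blnk on the minus strand at chr19:40994222-40994471. The octamer of Blnk began 130 bases before the start and was present in 1.60% of 32851 promoters, and in no other of the 6. The EBF motif of Cd22 began 49 bases before the start and was present in 0.779% of promoters. An E-box was present in 17.2% of promoters and in 4 of the 6, those of Cd79a, Cd22, Blnk and Cr2. These matches are descriptions of letters and were not tested against the array values.

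Cy5 signal was well above background on all 9 arrays for 5 probes, those of Cd79a, Cd79b, Blnk, Pou2af1 and the second Cr2 probe. It was well above background on none for the second probes of Pax5 and Cd22, and on 1 array for the first Cr2 probe, and these 3 probes were not tested. By array, 7 to 9 of the 13 probes were well above background in the marker-positive fraction and 5 to 10 in the marker-negative fraction. In the Cy3 reference 9 probes were well above background on all 9 arrays. No member probe was saturated.

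**Figure D1:**
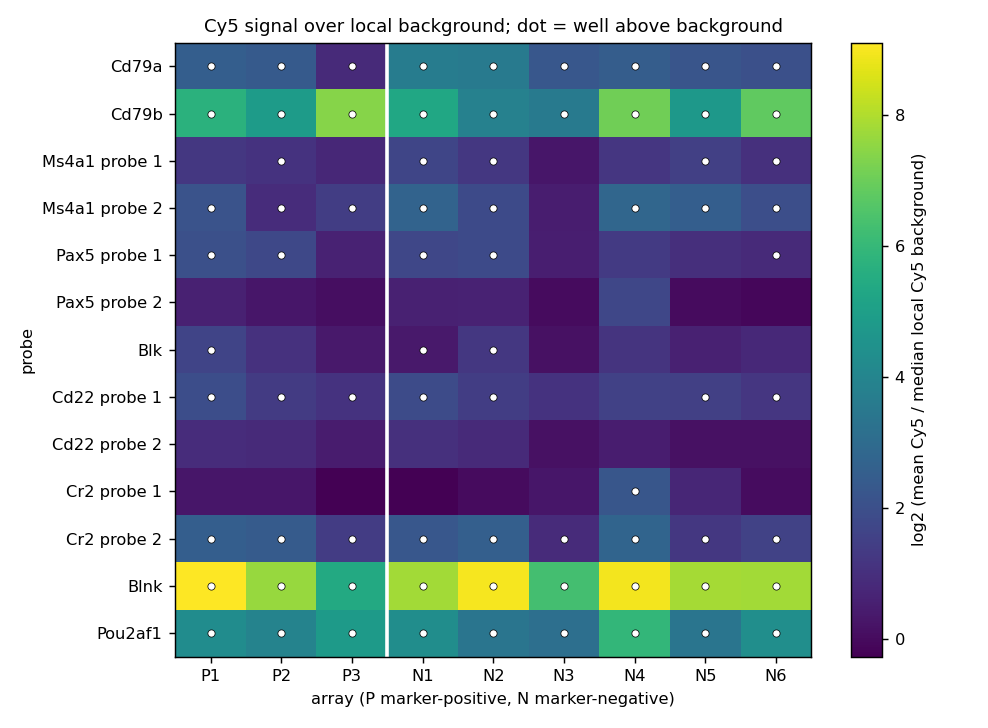
Rows are the 13 probes and columns the 9 arrays (P1 to P3 marker-positive, N1 to N6 marker-negative), coloured by the log2 ratio of mean Cy5 signal to local Cy5 background, with a dot where the scanner software called the signal well above background. Cd79a, Cd79b, Blnk, Pou2af1 and the second Cr2 probe carry dots on all 9 arrays, and the second probes of Pax5 and Cd22 carry none.

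One library stood apart from the others of its group. Over all tested probes the log2 ratios of marker-positive replicate 3 correlated at 0.609 and 0.582 with marker-positive replicates 1 and 2, which correlated at 0.923 with each other. The same library correlated at 0.677 with marker-negative replicate 4 and at 0.676 with replicate 6. Such values were not particular to it, since marker-positive replicates 1 and 2 correlated at 0.721 and 0.729 with marker-negative replicate 1. Cy5 signal was well above background for 45.5% to 69.3% of probes on marker-positive and 47.5% to 69.5% on marker-negative arrays. Of the defining prostate genes, 14 luminal epithelial genes were measured, and their mean log2 ratio was -0.06 on marker-positive replicate 3 and 2.41 to 3.92 on the other 8 arrays. Without that library none of the 10 probes was called either, beside 4.26% of all probes called higher and 2.72% lower.

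The signalling partners Cd79a and Cd79b behaved differently across the arrays. Cd79a (probe A_52_P651316, chromosome 7, 21688822 to 21689079, build mm7) encodes the immunoglobulin-associated alpha protein of the receptor complex. Its log2 ratio to the reference was 0.42, 0.49 and 0.34 in marker-positive cells. In the marker-negative fraction it was lowest at 0.63, with a median of 1.09 and a highest value of 1.74. All 3 marker-positive arrays therefore lay under all 6 marker-negative arrays, a separation that 11.6% of all tested probes showed in either direction and 6.78% in this one. The means were 0.42 ± 0.08 (SD, n = 3) and 1.12 ± 0.36 (SD, n = 6), a log2 difference of -0.71 (SE 0.25, 95% interval -1.28 to -0.14) that did not pass (limma, adjusted p = 0.162). Signals of this probe were dim, with a raw Cy5 mean between 94.0 and 539 and a raw Cy3 mean between 105 and 138. Raw Cy5 of Cd79a overlapped between the fractions, at 325, 284 and 94.0 on marker-positive arrays against 202 to 539 on marker-negative arrays. Only slides 1 and 2 carried both fractions. Slide 1 held replicate 1 of each fraction, and slide 2 held marker-positive replicate 2 with marker-negative replicates 2 and 4. The difference was -0.74 within slide 1 and -0.34 within slide 2. It passed only with array weights (-0.64, adjusted p = 0.0328), a setting under which 9.96% of all probes were called higher and 11.7% lower.

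Cd79b (probe A_51_P342652, chromosome 11, 106420507 to 106420566) encodes the immunoglobulin-associated beta protein of that complex. In the marker-positive fraction its log2 ratio was -1.62, -2.50 and 1.39. In the marker-negative fraction it was -1.93, -3.62, -1.03, 0.19, -1.19 and 0.64. The highest values thus came from 1 marker-positive array (replicate 3) and 2 marker-negative ones (6 and 4), so that both fractions held high and low arrays and overlapped. From the lowest to the highest array the ratio spanned 32.1-fold, while the raw Cy3 signal of the common reference varied 1.34-fold. Means were -0.91 ± 2.04 (SD, n = 3) and -1.16 ± 1.53 (SD, n = 6), a log2 difference of 0.25 (SE 1.03, 95% interval -2.05 to 2.54, limma adjusted p = 0.932). That interval leaves room for a difference of either sign, and without marker-positive replicate 3 the value was -0.90 (adjusted p = 0.607). Without marker-negative replicate 2 the sign also turned, to -0.25 (adjusted p = 0.927).

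Blk (probe A_52_P15405, chromosome 14, 58242375 to 58243512), a Src-family kinase of B cells, gave log2 ratios of 0.44, 0.20 and 0.07 on marker-positive arrays. On marker-negative arrays the lowest was -0.05, the median 0.22 and the highest 0.43. The fractions overlapped over nearly the whole range. Cy5 signal was well above background on 1 of 3 and 2 of 6 arrays. The log2 difference was 0.04 (SE 0.14, 95% interval -0.27 to 0.35, limma adjusted p = 0.919).

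Blnk (probe A_51_P279841, chromosome 19, 40822777 to 40822836) encodes the adaptor that links receptor kinases to downstream enzymes, and is also known from macrophages. Its log2 ratio was -0.20, -1.50 and -2.12 in marker-positive cells. In the marker-negative fraction it ran from -1.32 to -0.30 with a median of -0.53. Marker-positive replicate 1 was the highest of all 9 arrays and replicates 2 and 3 the lowest, so the marker-positive values enclosed the marker-negative ones. Raw Cy5 signal was between 2167 and 27942 and raw Cy3 signal between 13876 and 19014, so the transcript was measured far from background in both fractions. The means were -1.28 ± 0.98 (SD, n = 3) and -0.59 ± 0.37 (SD, n = 6), a log2 difference of -0.68 (SE 0.40, 95% interval -1.57 to 0.20, limma adjusted p = 0.386). Within slide 1 the difference was 1.12 and within slide 2 it was -1.07, each with 1 marker-positive array. The slide 1 value compared replicate 1 of each fraction, -0.20 against -1.32. With slide as a fixed block the value was -0.13 (limma adjusted p = 0.934), and it was -1.22 without marker-positive replicate 1 and -0.26 without replicate 3.

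Among the co-receptors and surface proteins, Ms4a1, which encodes CD20, a B cell membrane protein and antibody target, lay far below the reference on every array. The brighter probe (A_52_P483336, chromosome 19, 10931002 to 10931061) gave log2 ratios of -3.61, -4.45 and -2.06 on marker-positive arrays. On marker-negative arrays it gave a lowest value of -3.85, a median of -2.45 and a highest value of -1.99. The fractions overlapped, and the lowest array of all was marker-positive replicate 2. The log2 difference was -0.73 (SE 0.57, 95% interval -1.99 to 0.54, limma adjusted p = 0.530), and it ran from -0.19 without marker-positive replicate 2 (adjusted p = 0.929) to -1.39 without replicate 3 (adjusted p = 0.148). The other probe (A_51_P277683, chromosome 19, 10931462 to 10931521) was well above background in Cy5 on 1 of 3 and 4 of 6 arrays. It gave -3.37, -3.23 and -1.48 against a range of -3.47 to -1.61, and a log2 difference of -0.21 (SE 0.56, adjusted p = 0.892). Both probes gave lower ratios for marker-positive replicates 1 and 2 than for replicate 3, while raw Cy5 signal was dim and lowest on replicate 3. On replicates 1, 2 and 3 it was 208, 110 and 104 for the brighter probe and 118, 121 and 67.2 for the other.

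Cd22, a sialic acid-binding receptor that dampens B cell receptor signals, was near the limit of detection. Its brighter probe (A_51_P448140, chromosome 7, 27806351 to 27806410) was well above background on 3 of 3 and 4 of 6 arrays. Log2 ratios were 0.45, 0.17 and 0.64 on marker-positive arrays, and 0.14 at lowest, 0.28 at the median and 0.88 at highest on marker-negative arrays. The difference was 0.06 (SE 0.20, 95% interval -0.38 to 0.50, limma adjusted p = 0.915). The second Cd22 probe (A_52_P466268) was well above background in neither dye on any array and lay at 0.28 or lower.

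Cr2 encodes the complement receptors CD21 and CD35, which bind complement fragments on antigen and are also known from follicular dendritic cells. Its probe A_52_P490788 (chromosome 1, 194717651 to 194717710) was well above background on all 9 arrays, with raw Cy5 signal between 102 and 300.2. Log2 ratios were 0.30, 0.38 and 0.79 on marker-positive arrays. On marker-negative arrays they ran from 0.10 to 0.46 with a median of 0.24. Marker-positive replicate 3 had the highest ratio and the other 2 lay within the marker-negative range. Raw Cy5 signal was 106 on replicate 3, beside 279 and 281.5 on marker-positive replicates 1 and 2. The difference was 0.21 (SE 0.19, 95% interval -0.22 to 0.63, limma adjusted p = 0.608), and 0.06 without marker-positive replicate 3. The other Cr2 probe (A_51_P208525, chromosome 1, 194695473 to 194695532) was well above background only on marker-negative replicate 4, where its ratio was 1.38, and it lay between -0.10 and 0.62 on the other 8 arrays.

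Of the transcriptional regulators, Pax5, which maintains B cell identity, was near the limit of detection. Its probe A_51_P122855 (chromosome 4, listed from 44551296 to 44583850) was well above background on 2 of 3 and 3 of 6 arrays. Log2 ratios were 0.37, 0.30 and 0.24 on marker-positive arrays, and 0.02 at lowest, 0.18 at the median and 0.31 at highest on marker-negative arrays. The log2 difference was 0.13 (SE 0.12, 95% interval -0.13 to 0.38, limma adjusted p = 0.610). The second Pax5 probe (A_52_P429826, chromosome 4, 44538878 to 44538937) was not well above background in Cy5 on any array and ranged from -0.28 to 0.57.

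Pou2af1 (probe A_51_P183581, chromosome 9, 51218585 to 51218644) encodes a coactivator of octamer-binding factors in B and plasma cells. In the marker-positive fraction its log2 ratio was -4.44, -4.66 and -2.60. In the marker-negative fraction it was -4.09, -5.28, -3.36, -2.52, -3.91 and -2.79. Highest were replicates 4 and 6 of the marker-negative and replicate 3 of the marker-positive fraction, the same 3 arrays that were highest for Cd79b. The means were -3.90 (n = 3) and -3.66 (n = 6), a log2 difference of -0.24 (SE 0.65, 95% interval -1.68 to 1.20, limma adjusted p = 0.891). Raw Cy5 signal of this probe was between 436 and 4082, and raw Cy3 signal between 12175 and 17615. The order of raw Cy5 differed from that of the ratios. Marker-negative replicate 1 (1490) lay above marker-negative replicate 6 (1436) and marker-positive replicate 3 (1395).

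**Figure D2:**
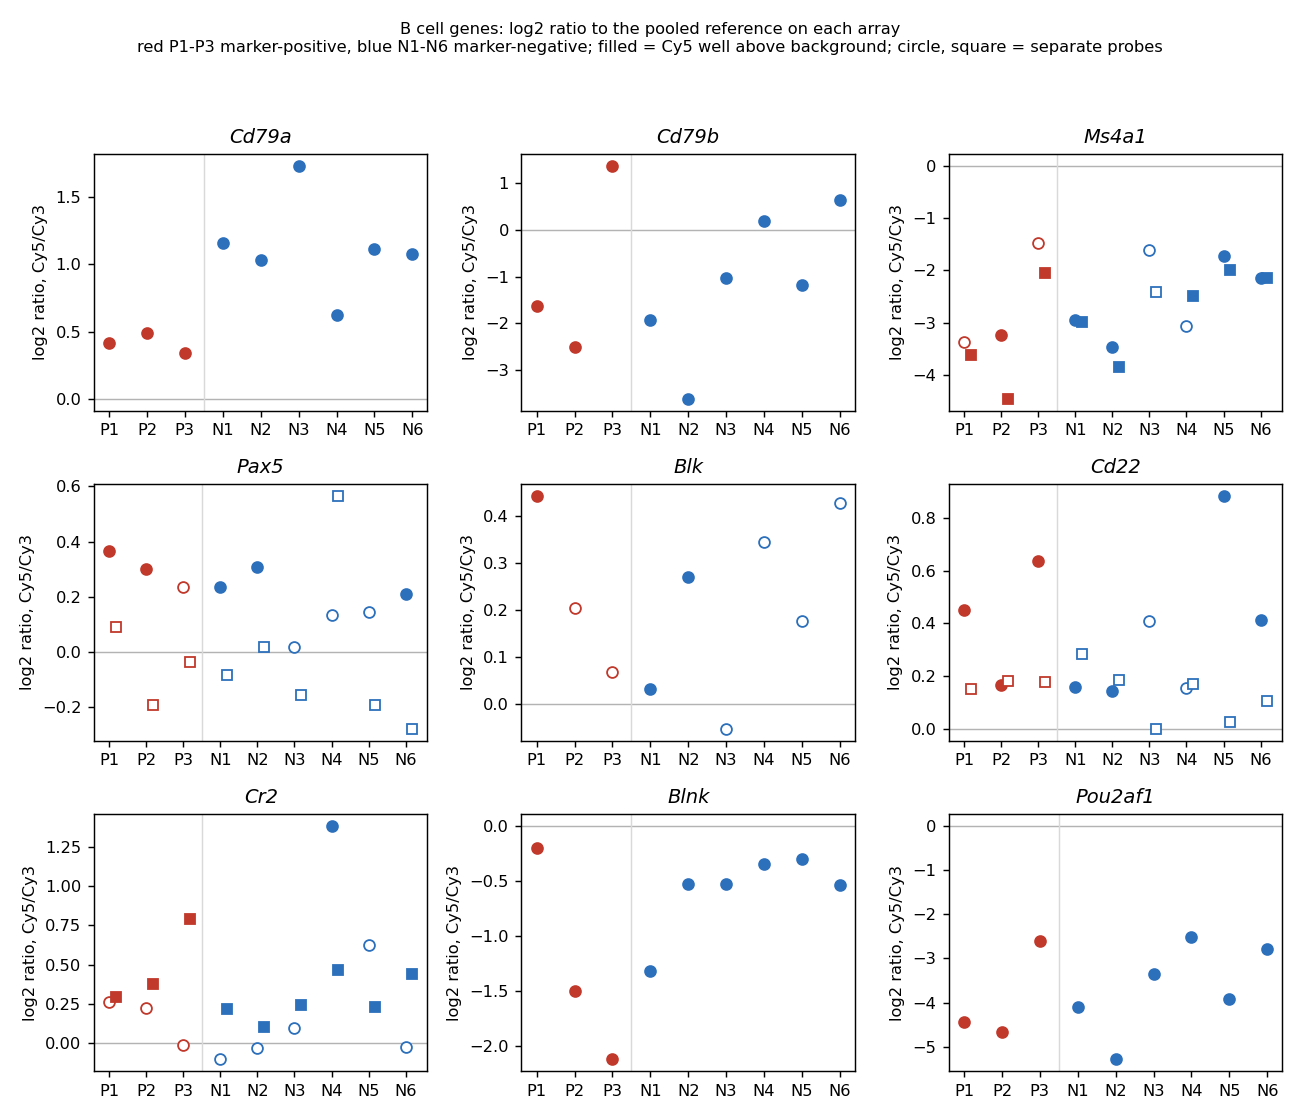
Each panel plots the log2 ratio of Cy5 sample to Cy3 reference for 1 gene on the 9 arrays, red for marker-positive and blue for marker-negative, filled where Cy5 was well above background, with circles and squares for separate probes. The axes differ between panels. Cd79a is the tested gene whose fractions do not overlap, and Cd79b runs from -3.62 to 1.39.

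Some of these genes varied together over the arrays. Across the 9 arrays, Cd79b and Pou2af1 correlated at a Pearson r of 0.958 (Spearman rho 0.933), out of 36 pairs among the 9 genes, followed by Cd79b and Cr2 at 0.832, Ms4a1 and Pou2af1 at 0.805 and Cd79b and Ms4a1 at 0.786. The partners Cd79a and Cd79b correlated at -0.197, and the lowest pair was Cd79a and Pax5 at -0.676. Those same 3 arrays also had the highest mean log2 ratios of 10 pan-leukocyte genes, at 2.90 (marker-positive replicate 3), 2.57 and 2.38, beside -1.11 to 1.81 on the other 6 arrays. Cd79b correlated with that mean at r = 0.897 (rho 0.783), and at 0.767 without the 2 arrays farthest from its median. Pou2af1 did so at r = 0.822 (rho 0.733), and at 0.619 without those 2 arrays. With the mean of 20 other B lineage genes Cd79b correlated at 0.913 and Pou2af1 at 0.886. On that mean Cr2 was at 0.742, Ms4a1 at 0.642, Cd22 at 0.352 and Blk at 0.288. Cd79a (-0.304), Pax5 (-0.297) and Blnk (-0.043) were negative. With the pan-leukocyte mean Cd79a (-0.479), Pax5 (-0.126) and Blnk (-0.204) were negative as well, so not all 9 genes followed these lists. Cr2 correlated at -0.963 (rho -0.833) with the mean of the 14 luminal epithelial genes, and at -0.813 without the 2 farthest arrays. These are descriptions over 9 arrays that share the reference and the normalization, taken from 108 combinations of gene and list. Their part in the spread of Cd79b and Pou2af1 was not tested.

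**Figure D3:**
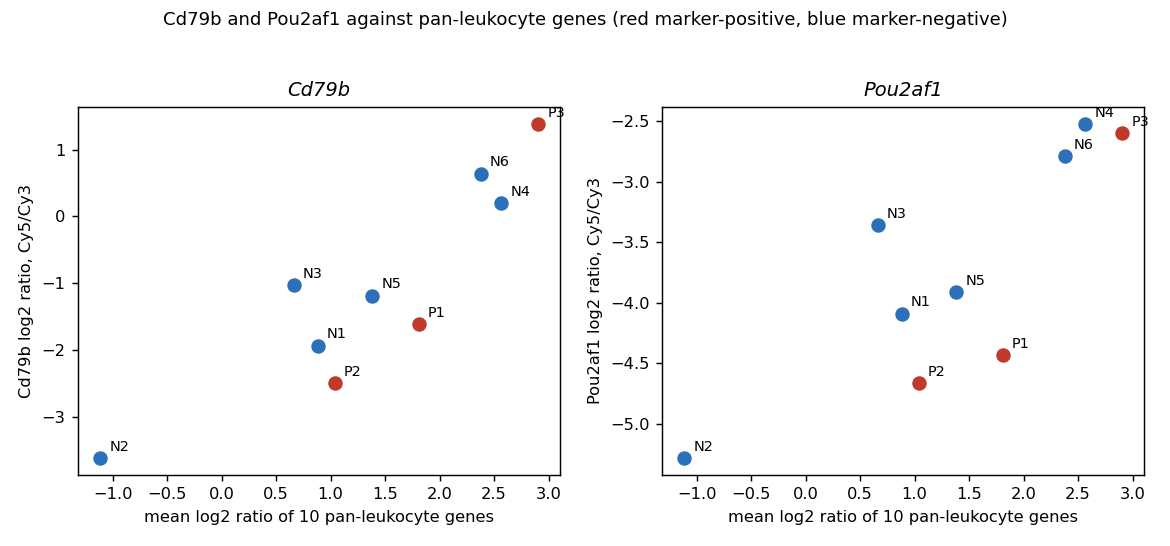
Each point is 1 array (P marker-positive in red, N marker-negative in blue), with the mean log2 ratio of 10 pan-leukocyte genes on the horizontal axis and the log2 ratio of Cd79b (left) or Pou2af1 (right) on the vertical axis. P3, N4 and N6 lie at the upper right in both panels and N2 at the lower left.

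The genes whose log2 ratio was most like that of each member over the 9 arrays were named by their Pearson correlation. For Cd79b these were Xlr (0.990), Gm6583 (0.988) and Ppfia4 (0.984), and for Pou2af1 they were Kif21b (0.982), Gm6583 (0.979) and Klra2 (0.976). Cr2 was closest to Psme2b (0.985), Psmb9 (0.985) and the transcript NAP057143-1 (0.982). Cd79a was closest to Ivd (0.985), Olfr360 (0.982) and 4930473O22Rik (0.982), and Ms4a1 to Cdk6 (0.961), Trub2 (0.950) and Il21r (0.947). Blnk was closest to Zfp106 (0.942), Ddi2 (0.920) and Gla (0.917). For Pax5 the leading genes were Mturn (0.948), Baat (0.944) and Vapa (0.927), for Blk the transcript BC069963 (0.942), Nhej1 (0.922) and the transcript AK046757 (0.919), and for Cd22 the transcript BC010304 (0.962), Pde6h (0.958) and Ric8a (0.936). These are the highest values among all tested probes and carry no test.

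Other genes of the B lineage did not separate the fractions either. Of 25 such genes on the array 20 were tested, and none was called, with 10 positive and 10 negative differences and a median of 0.10. Without marker-positive replicate 3, and with array weights, 1 of them was called higher, beside 4.26% and 9.96% of all probes. At gene level 1.57% of 19851 genes were called higher and 1.67% lower. Nearest to the threshold were Ebf1, an early B lineage transcription factor, at 1.34 (limma adjusted p = 0.153), and Cd72, an inhibitory co-receptor, at -1.90 (adjusted p = 0.230). Ebf1 was well above background on 2 of 3 marker-positive and 1 of 6 marker-negative arrays, so it needed marker-positive arrays to pass the filter. Its ratio on marker-positive replicate 3 (-0.97) lay within the marker-negative range of -1.98 to -0.63. Next came Fcrla, a Fc receptor-like protein of B cells, at 1.62 and Fcmr, the receptor for IgM, at -0.69. The genes Bank1, Fcer2a, Igll1, Rag1 and Rag2 were on the array and under the detection filter.

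None of 15 tested immunoglobulin genes was called by its brightest probe, 10 with positive and 5 with negative differences and a median of 0.27. Ighm, the IgM heavy chain, was above the reference in both fractions, at 5.42 ± 1.61 (SD, n = 3) and 4.58 ± 1.71 (SD, n = 6), which differed by 0.83 (SE 1.03, limma adjusted p = 0.720). Nearest to the threshold was a kappa light chain variable segment at 2.57 (limma adjusted p = 0.126). Of the 8 probes for the heavy chain variable family Igh-VJ558, the brightest did not pass (-0.75, adjusted p = 0.159), while another was called lower at -3.69 (adjusted p = 0.0457). Without marker-positive replicate 1, 1 immunoglobulin gene was called higher, beside 0.455% of all probes. Probes of immunoglobulin segments may share signal between near-identical copies, and these values are uncertain for that reason.

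Of 8 genes known from plasma cells, the antibody-secreting stage of the B lineage, 2 were called higher and 1 lower in marker-positive cells. Over all 19851 tested genes 1.57% were called higher and 1.67% lower. Tnfrsf17, which encodes the survival receptor BCMA, had log2 ratios of 3.35, 1.86 and 3.83 on marker-positive arrays and lay between -1.81 and -0.65 on marker-negative arrays, where 2 of 6 were well above background. Its difference was 4.31 (SE 0.44, limma adjusted p = 0.00164), and with a fixed block for slide 4.03 (adjusted p = 0.0597). The detection filter of 3 arrays was reached only with marker-positive arrays counted, and without that filter the limma adjusted p was 0.00176. Jchain, the joining chain of secreted antibodies, was higher by 1.34 (SE 0.29, adjusted p = 0.0409). The Jchain call ended under 13 of 21 alternatives, among them the fit with a fixed block for slide (1.21, adjusted p = 0.0978), without marker-positive replicate 1 (1.28), without marker-positive replicate 3 (1.07) and without each marker-negative array in turn (1.25 to 1.40). A second Jchain probe gave 2.51 (adjusted p = 0.0315). Derl3, a protein of endoplasmic reticulum quality control, was lower (difference -2.77, SE 0.53, adjusted p = 0.0239), a call lost on omitting replicate 1 (-2.91) or 2 (-2.80) of the marker-positive or replicate 1 (-2.68) of the marker-negative fraction, with a fixed block for slide (-2.75, adjusted p = 0.223) and with median centring (-2.71, adjusted p = 0.159). Irf4, a transcription factor of plasma cells and other leukocytes, did not pass (2.63, adjusted p = 0.067). Prdm1 (1.34), Sdc1 (1.57), Mzb1 (0.21) and Xbp1 (-0.13) did not pass either.

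**Figure D4:**
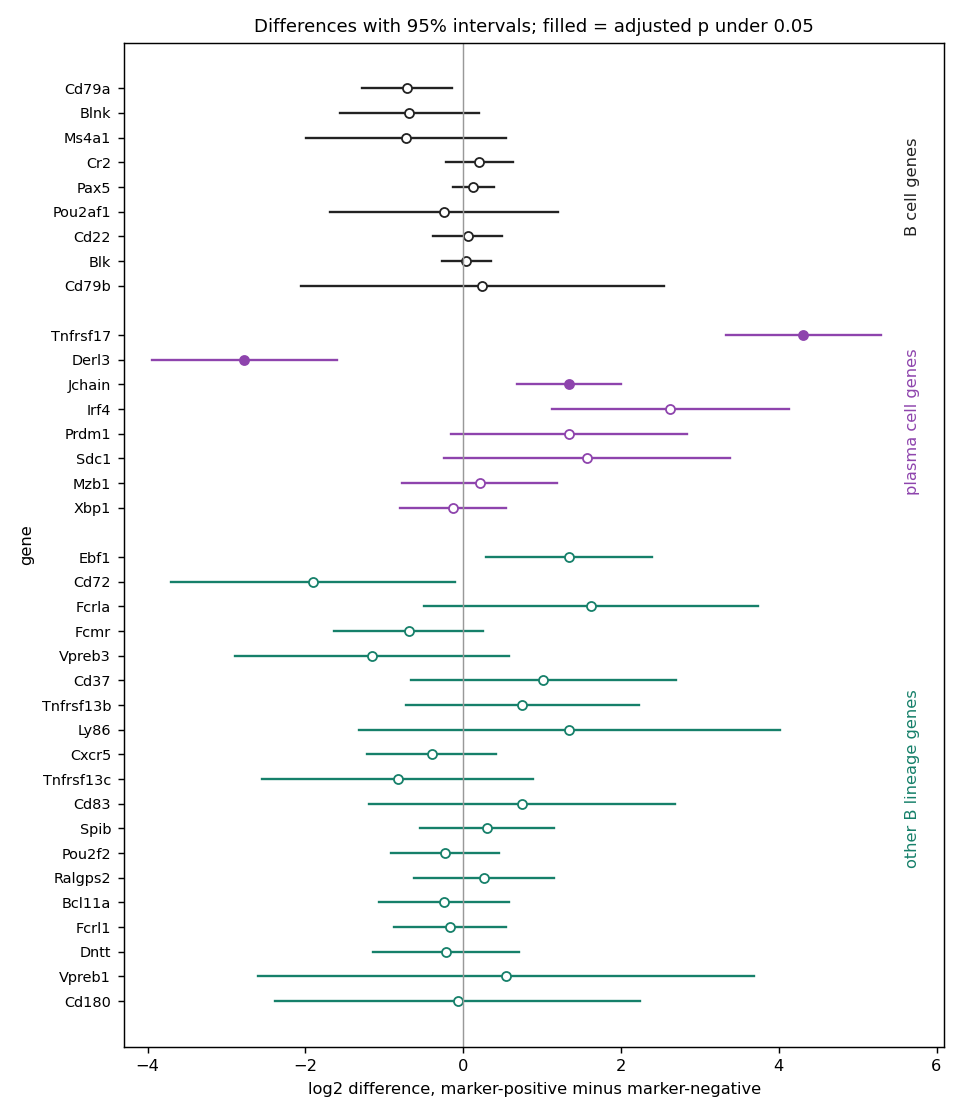
Points are log2 differences of marker-positive minus marker-negative cells and lines their 95% intervals, for the 9 B cell genes, 8 plasma cell genes and other B lineage genes, each by its brightest tested probe. Filled points passed an adjusted p of 0.05, which were Tnfrsf17, Derl3 and Jchain, and all 9 B cell genes are open.

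Among 22 genes of the B cell receptor pathway, Syk, the kinase that binds the phosphorylated tails of the Cd79a and Cd79b proteins, was called higher. Its log2 ratio was 3.39, 1.87 and 2.53 in marker-positive cells and -1.07 to 1.37 in marker-negative cells, and differed by 2.53 (SE 0.54, limma adjusted p = 0.0359). The other 21 did not pass, beside 1.57% of all tested genes that were called higher. Without marker-positive replicate 3, or with the probes of each gene averaged, 2 genes of the list were called higher, and 7 with array weights. Of all probes 4.26% were called higher without marker-positive replicate 3 and 9.96% with array weights. Fcgr2b, an inhibitory Fc receptor, was at 1.49 (adjusted p = 0.0581), the exchange factor Rasgrp3 at 2.91 (adjusted p = 0.0657) and the tetraspanin Cd81 at 1.09 (adjusted p = 0.0742). Other Fcgr2b probes gave larger differences that did not pass, 3.01 (limma adjusted p = 0.0517) and 2.91 (adjusted p = 0.0705). Over the pathway 19 differences were positive and 3 negative, with a median of 0.62. For Syk the call was lost on omitting replicate 1 (2.14) or 2 (2.90) of the marker-positive fraction, or any of replicates 1, 2, 3, 5 and 6 (2.31 to 2.61) of the other. It was also lost with a fixed block for slide (2.48, adjusted p = 0.259), with median centring (2.27, adjusted p = 0.119) and with processed signals (2.90, adjusted p = 0.0584).

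Many of these pathway genes are also known from macrophages and mast cells, some of whose markers were called higher in marker-positive cells. Among all tested genes the share called higher was 1.57%. Of 13 macrophage genes 4 were called higher (Cd163, Mrc1, Lyz2 and Itgam), none was called lower and 9 did not pass, among them C1qa (0.47) and Tyrobp (0.30). Their mean log2 ratio was 3.52 to 4.59 on marker-positive and 0.16 to 3.08 on marker-negative arrays. Of 10 mast cell genes 4 were called higher (Tpsb2, Fcer1a, Cpa3 and Kit), with means of 3.63 to 4.08 against 0.71 to 3.01. The other 6 did not pass, among them Gata2 (-0.55) and Ms4a2 (0.18). Kit encodes CD117, an antigen on which the fractions were sorted, so its call and part in the means are not independent of the sort. With a fixed block for slide 2 macrophage and 2 mast cell genes were called. Without marker-positive replicate 1 these counts were also 2 and 2. The mast cell count was 2 as well without marker-positive replicate 2 or marker-negative replicates 1, 2, 5 or 6, and 8 with array weights. That setting called 9.96% of all probes higher. In the marker-negative fraction no array had Cd163 or Mrc1 well above background, so their probes passed the detection filter through the marker-positive arrays alone. Of 6 plasmacytoid dendritic cell genes Tcf4, an E-protein transcription factor, was called higher at 1.52 (limma adjusted p = 0.0484), while its other probes gave 1.77 (adjusted p = 0.0173, well above background on 9 arrays) and -0.97 (adjusted p = 0.0847, on 3 arrays). For Tcf4 it was lost on omitting replicate 1 (1.48) or 2 (1.15) of the marker-positive fraction, or any 1 marker-negative array (1.41 to 1.60). It was also lost with a fixed block for slide (2.11, adjusted p = 0.0891), with median centring (1.93, adjusted p = 0.233) and without the detection filter (1.52, adjusted p = 0.0654). The part of these cells in the values of Syk, Jchain and Tnfrsf17 was not tested.

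Other lists showed where the fractions did differ, beside 1.57% of all tested genes called higher and 1.67% called lower. Of 15 T and NK cell genes 4 were called lower in marker-positive cells (Cd3d, Cd8a, Klrb1c and Cd3g) and none higher, with list means of -0.41 to 0.67 on marker-positive and 0.72 to 3.03 on marker-negative arrays. That count was 0 without marker-positive replicate 1 or 2, 2 without marker-negative replicate 1 or 5, 1 with a fixed block for slide and 9 with array weights. Array weights called 11.7% of all probes lower. Other Cd8a probes gave -2.27 (limma adjusted p = 0.115) and -0.50 (adjusted p = 0.226), and another Klrb1c probe gave -0.45 (adjusted p = 0.425). The called Cd8a probe was well above background on 0 of 3 marker-positive and 6 of 6 marker-negative arrays, so the latter alone passed it through the filter. None of 10 pan-leukocyte genes and none of 5 follicular dendritic cell genes was called. Of the latter 2 were called higher without marker-positive replicate 3, and 1 higher and 1 lower without marker-negative replicate 4. Of all probes 4.26% were called higher in the former setting, and 1.41% higher and 2.37% lower in the latter. Ehf was called lower among the 14 luminal genes and Trp63 higher among 12 basal epithelial genes. Trp63 was well above background on 3 of 3 marker-positive and 2 of 6 marker-negative arrays, so it too needed marker-positive arrays to pass the filter. The luminal count was 0 without marker-positive replicate 2 and with a fixed block for slide. The basal count was 0 without marker-positive replicate 1 or 2 and without any 1 marker-negative array. The mean log2 ratio of the 9 B cell genes, each by its brightest probe, was -1.29 to -0.37 on marker-positive and -1.27 to -0.25 on marker-negative arrays, and so overlapped.

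In the authors' deposited table, which compared the same fractions, all 13 probes had the same sign of difference as found here. None of the 13 had an adjusted p under 0.05 in the authors' deposited table, where Cd79a had a log2 difference of -0.71 (turned to marker-positive minus marker-negative) and the smallest adjusted p of the 9 genes, 0.0840. The log2 column of the authors' deposited table ran opposite in sign to its fold column of stem over non-stem cells in all 43379 rows, and the fold column gave the direction used here.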

How the data were processed

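Spot intensity values for both dyes were taken from 9 Agilent arrays of design 014868 scanned and extracted with Agilent's Feature Extraction software, whose version is 10.7 in the submitters' processing notes and 10.7.3.1 per the file headers. The mean and local background intensity values are not normalized, while the processed intensity values had been background-subtracted and dye-normalized by the scanner software, per the file headers. The log10 ratio per the file headers was not used. The authors' deposited table holds log2 differences, a p-value and adjusted p-value, and a signed fold and score columns, whose normalization no source used here gives.

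For the tests, mean intensities were corrected by normexp (offset 50) and normalized by loess within arrays in limma 3.58.1 (R 4.3.3), with control and outlier spots at weight 0. Outlier spots were then treated as missing and replicate spots averaged. A detection filter on Cy5 (3 or more arrays called well above background) left 28334 of 41174 probes for testing (lmFit, eBayes with trend and robust estimation, two-sided, Benjamini-Hochberg over all of them, threshold 0.05). A gene stood as its tested probe of highest mean intensity. Probes of other genes were named through RefSeq accessions, symbols or synonyms, except 8455 that kept the file's name. Probe coordinates are on build mm7, per the file headers; exons and untranslated parts were not used here. The 9 genes and all lists were chosen with earlier results of these data known. The rule for names took all 9 genes, the called genes and up to 4 genes of smallest adjusted p of each list, and for each of the 9 the 3 most alike genes by correlation. Ighm and the remaining plasma cell genes are named outside that rule, chosen after their values were seen. One item of a list is counted there but not reported here by name. The procedure was tested on simulated data. The number of arrays limits the precision.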

Additional observations from a re-analysis of the deposited data

Results flagged for a closer look

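Of the 13 probes, 3 had 1 marker-negative array far from the other 5, with a gap to the nearest array that was a larger share of the range than Dixon's critical value allows. Chance alone marks about 1 in 20 groups of values in this way. Blnk was lowest on marker-negative replicate 1, at a log2 ratio of -1.32 with the next array at -0.54. Cd22 (A_51_P448140) was highest on marker-negative replicate 5, at 0.88 with the next at 0.41. Pax5 (A_52_P429826), whose Cy5 signal was not well above background on any array, was highest on marker-negative replicate 4, at 0.57 with the next at 0.02.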

How the results depend on the processing

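No paired analysis was possible because the replicate numbers were given in accession order and so do not pair arrays; slide, which the array headers give, was used as a fixed and as a random block instead. Across 21 alternatives no probe was called higher, and 1 was called lower with array weights only, that of Cd79a. Leaving out any 1 array gave counts of 0 and 0. Of 205 values of the tested probes under alternatives 189 kept direction and side of the threshold, and 15 turned sign, none of them called. Cd79b turned to -0.46 with array weights and -0.32 with a fixed block for slide, and without single arrays it ran from -0.90 to 1.04. Blk turned to -0.17 with processed signals and -0.054 without background subtraction, Cd22 to -0.023 with array weights and Pou2af1 to 0.076 with median centring. Without single arrays Ms4a1 (A_51_P277683) ran from -0.81 to 0.13, Blk from -0.064 to 0.12, Cd22 (A_51_P448140) from -0.053 to 0.18 and Pou2af1 from -0.89 to 0.14. The causes were not tested. Settings moved the counts over all probes: array weights gave 2823 higher and 3309 lower, a fixed slide block 161 and 48, median centring 200 and 207, beside 420 and 563. Without marker-positive replicates 1, 2 and 3 they were 129 and 171, 161 and 161, and 1206 and 771. Within-slide values were added after seeing the data. The dim Cy5 signals of Cd79a, Ms4a1, Pax5, Blk, Cd22 and Cr2 limit what could be detected.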
